A study of Mus musculus with 8 samples.

Results

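The nuclear-encoded respiratory chain genes are the genes of the cell nucleus whose products build the 5 complexes of oxidative phosphorylation in the inner mitochondrial membrane. Members were taken by name, as every listed gene whose GENCODE M21 symbol starts with Nduf, Uqcr, Cox4 to Cox8 or Atp5, or is Sdha, Sdhb, Sdhc or Sdhd. The rule uses no measured value. It finds 94 of the 17488 genes in the deposited table, of which 91 are protein coding and 3 are pseudogenes. A further 13 symbols of the annotation match the rule and have no row in the table. The 8 samples were whole abdominal neuroblastomas, tumour and stroma cells together, from 8 mice homozygous for the TH-MYCN transgene, which drives human MYCN from a tyrosine hydroxylase promoter in cells of the neural crest. Vehicle and treated mice alike carried the transgene and a tumour of 200 to 300 mm3 when dosing began at about 6 weeks of age. Treatment was 2 doses, 24 h apart, of vehicle (4 mice) or of panobinostat at 5 mg/kg (4 mice), an inhibitor of histone deacetylases, and tumours were taken 4 h after the second dose. RNA from each tumour gave 1 library, called vehicle 1 to 4 and panobinostat 1 to 4 below, where the numbers are names and pair no animals.

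Complex I (NADH dehydrogenase) and complex II (succinate dehydrogenase) pass electrons to ubiquinone, complex III hands them to cytochrome c, and complex IV (cytochrome c oxidase) reduces oxygen. Complexes I, III and IV pump protons, and complex V (ATP synthase) makes ATP as the protons return. Most subunits are nuclear genes, the rest are encoded by mitochondrial DNA, and assembly factors put the parts together without staying in them. MYC family proteins are known to raise many mitochondrial genes, and the transcription factors NRF1 and GABP (an ETS family protein) bind many nuclear chain promoters.

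Values are log2 CPM, read counts scaled to library size on a log2 scale, and a log2 change is the panobinostat mean minus the vehicle mean, with its standard error. The libraries held 18664066 to 23830026 reads in listed genes, so that 1 CPM stood for 19.3 to 22.6 reads. A change was called when limma's moderated test over all 16157 genes at or above 1 CPM in at least 4 libraries gave a Benjamini-Hochberg adjusted p below 0.05. All 12 sympathoblast markers examined were present in every library, and 8 of them were called lower with panobinostat. The lowest read count of Th, the tyrosine hydroxylase gene, was 3649. Some libraries held RNA of neighbouring tissue: summed liver markers reached 713.9 CPM in panobinostat 3 and 9074 CPM in panobinostat 4, against at most 27.6 CPM in vehicle, and kidney markers reached 836.3 CPM in panobinostat 3. Pancreas markers stood at 681.7 CPM in panobinostat 2 and 4227 CPM in panobinostat 4, and skeletal muscle markers at 9491 CPM in panobinostat 1 and 3302 CPM in vehicle 2. Adrenal cortex markers stood at 9.21 to 11.4 CPM in vehicle and at 722.4, 39.6, 1013 and 2756 CPM in panobinostat. Cyp11b2 was at 0 reads in every vehicle library. Of the 8 listed markers 5 were tested, and all 5 were called higher, also without panobinostat 3 and 4. A marker under 1 CPM in every vehicle library was tested only if all 4 treated libraries reached 1 CPM, so the filter favoured such calls. Counts are given also without panobinostat 3 and 4, which leaves the adrenal cortex difference in place, and the part of that tissue in the members' values was not tested.

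Nuclear chain genes moved little and in both directions. Of the 94 members, 12 were called higher, 12 lower and 70 were not called, which is 25.5% called, against 63.7% of all tested genes (31.2% higher and 32.4% lower). The median log2 change of the members was -0.07, and that of all tested genes -0.02. The median size of change, whatever its sign, was 0.23 among members and 0.71 among all tested genes. For 52 members (55.3%) the 95% interval of the change lay within 1.5-fold in either direction, which held for 15.8% of all tested genes. The 4 treated values lay wholly above or wholly below the 4 vehicle values in 15 members, a pattern found in 59.7% of all tested genes.

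**Figure D1:**
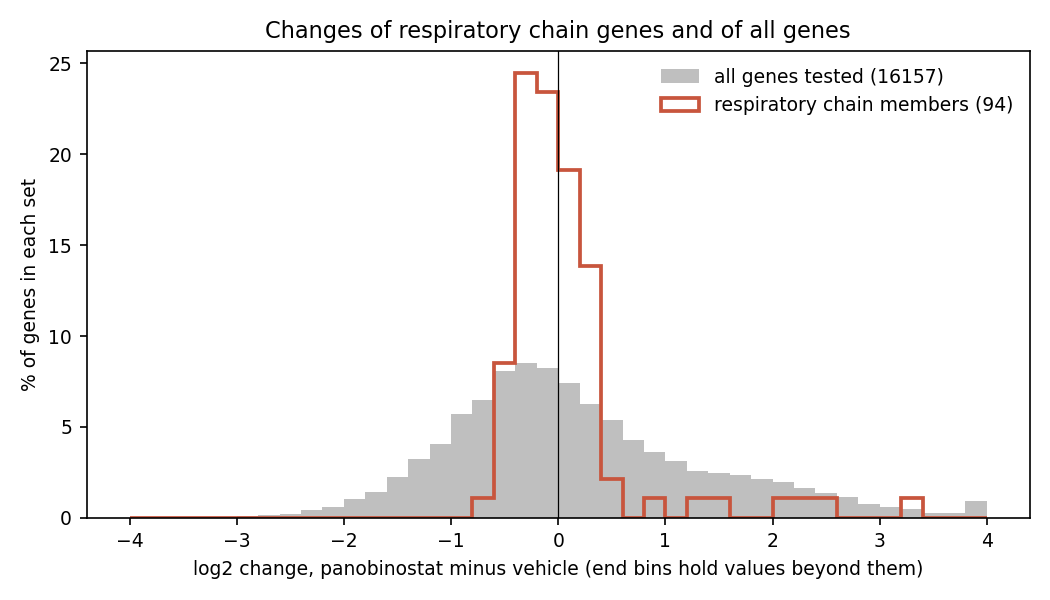
Histogram of the log2 change (panobinostat minus vehicle, horizontal axis) as a percentage of genes (vertical axis), for all 16157 tested genes (grey) and the 94 respiratory chain members (red line). Members crowd around 0, and the few beyond a change of 1 are complex IV isoform genes.

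The calls at the margin depended on single libraries and on scaling. The number of members called higher fell from 12 to 6 without vehicle 3, panobinostat 1 or panobinostat 3, and to 7 without panobinostat 4. It rose to 13 without vehicle 2 and to 16 without vehicle 4. The number called lower fell from 12 to 3 without vehicle 2 or panobinostat 2, to 5 without vehicle 4 or panobinostat 3 and to 4 without panobinostat 4. It rose to 16 without vehicle 1 and to 15 without vehicle 3. Of all tested genes, 56.8% (without panobinostat 3) to 64.8% (without vehicle 4) were called in these fits. With libraries scaled to their read totals the split was 21 higher and 5 lower (63.6% of all tested genes called), with median centring 6 higher and 27 lower (65.5%), and with quantile normalization 23 higher and 12 lower (65.9%). At an adjusted p of 0.01 there were 5 higher and 2 lower, against 49.8% of all tested genes. These scalings moved the median of all genes by 0.12, -0.12 and -0.10 on the log2 scale. The calls of 9 members held without any 1 library, namely Ndufc2, Ndufa3, Uqcrh, Cox6b2, Cox4i2, Ndufa4l2, Atp5a1, Atp5g2 and Atp5s. Without panobinostat 3 and 4 there were 9 calls, against 48.4% of all tested genes: Uqcrh, Cox6b2, Cox4i2, Ndufa4l2 and Atp5s were higher and Ndufc2, Atp5a1, Atp5b and Atp5g2 were lower. Only Cox6b2 and Cox4i2 passed a test against a change of 1.5-fold, which 30.9% of all tested genes passed.

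**Figure D2:**
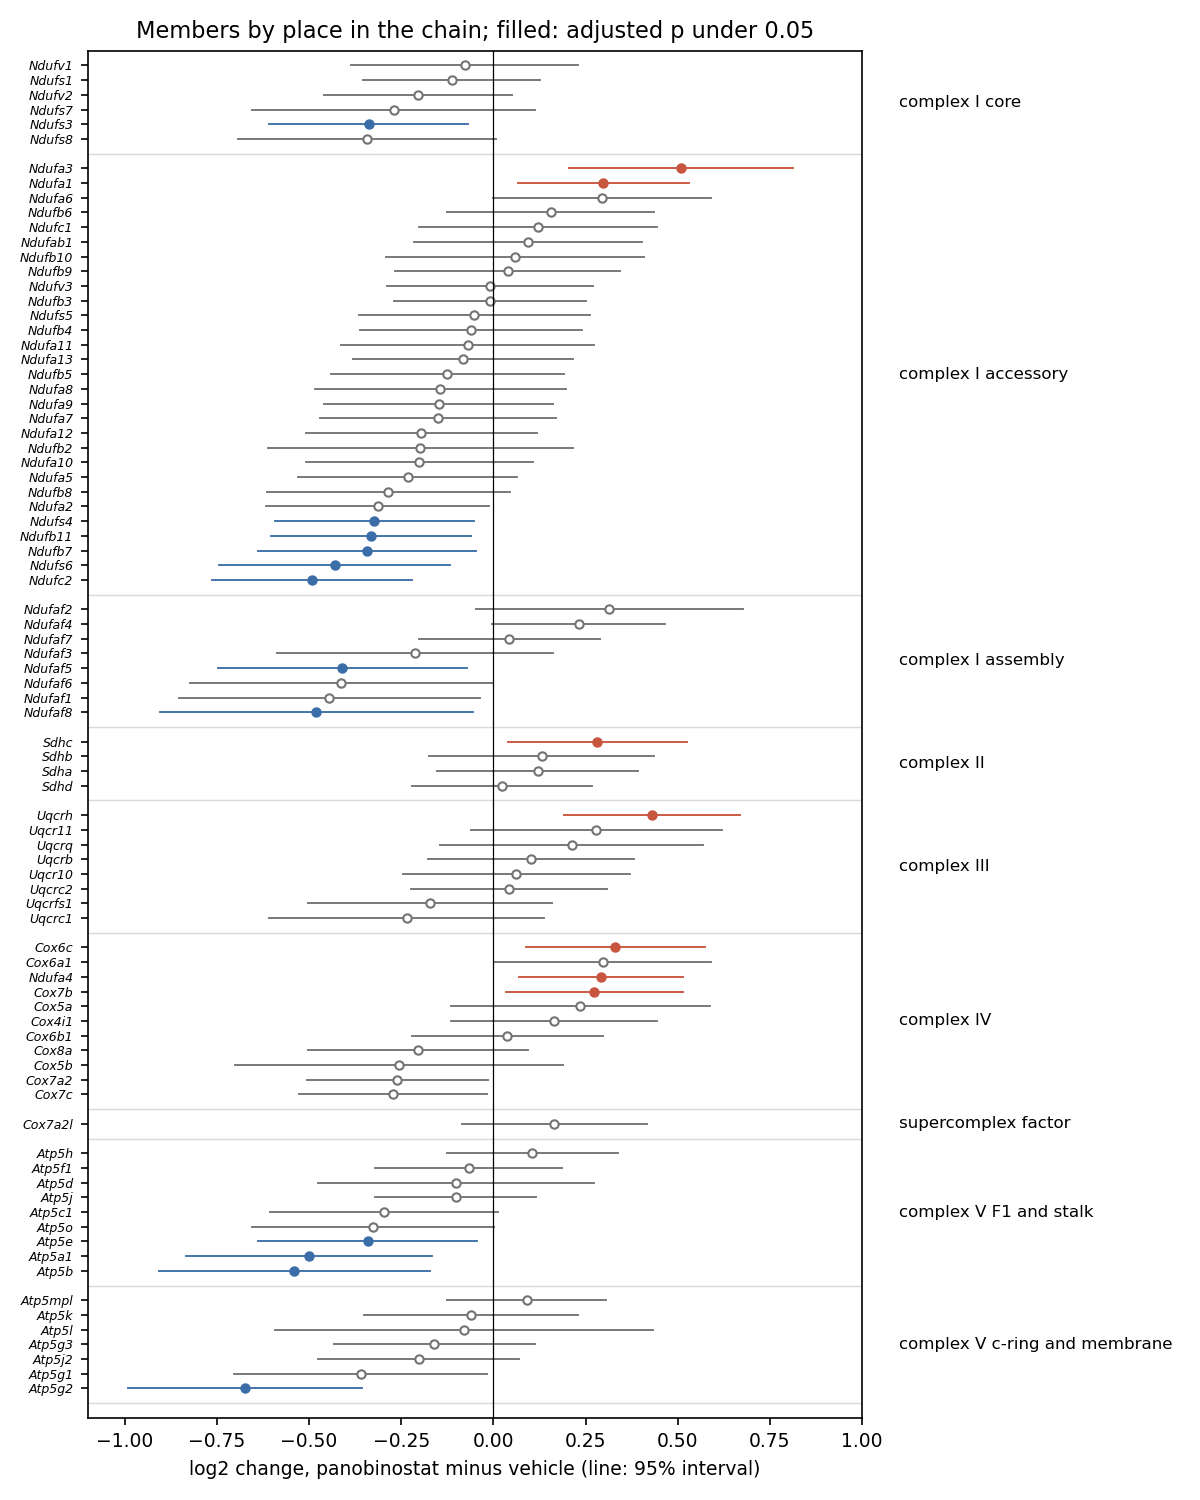
Log2 change (panobinostat minus vehicle, horizontal axis) with its 95% interval for 83 of the 84 members placed in complexes I to V or as supercomplex factor, ordered within each group. Filled red points are called higher and filled blue points lower. No complex V member is filled red, and no member of complexes II, III or IV is filled blue.

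Of 26 tested regulators of nuclear chain genes and of mitochondrial DNA expression, 6 were called higher and 9 lower (57.7%, against 63.7% of all tested genes). Their median log2 change was 0.0059, which was -0.11 with median centring and -0.19 with quantile normalization. Their median size of change was 0.44, between the 0.23 of the members and the 0.71 of all tested genes. Ppargc1a encodes PGC-1alpha, a coactivator of mitochondrial biogenesis. Its level was 1.29, 1.36, 1.40 and 0.48 log2 CPM in vehicle 1 to 4 and 3.95, 3.23, 3.94 and 3.73 in panobinostat 1 to 4, a change of 2.58 ± 0.27 (limma adjusted p = 4.5e-05). The treated tumours were all higher than the vehicle tumours, and its partners Esrra (0.53) and Esrrg (1.71), orphan nuclear receptors, were also called higher. Esrrb (1.78) was called higher too, but at few reads: 5, 21, 10 and 3 in vehicle and 39, 14, 27 and 30 in panobinostat, with overlapping groups. Ppargc1a is also a brown fat marker, and the levels of that list are given with the isoform genes below. In the opposite direction, Nrf1 stood at 5.86, 5.97, 5.96 and 6.31 log2 CPM in vehicle and 4.90, 4.93, 4.85 and 4.89 in panobinostat, a change of -1.13 ± 0.11 (limma adjusted p = 3.5e-05). The groups were apart, with treated tumours below. All 3 tested GABP genes were lower, at -0.62 for Gabpa, which binds DNA, -1.49 for Gabpb1 and -1.31 for Gabpb2. Pprc1, a growth-regulated relative of PGC-1alpha, fell by 1.47 on the log2 scale, and Yy1 was not called (-0.22, limma adjusted p = 0.058). Among genes of mitochondrial DNA upkeep and transcription, Tfam (-0.40), the helicase gene Twnk (-0.61), the elongation factor gene Tefm (-0.82) and Ssbp1 (-0.42) were called lower, and Tfb2m (0.71) and Polg2 (0.41) higher. Without panobinostat 3 and 4, 3 regulators were called higher and 8 lower, and the calls of Esrra, Esrrb, Polg2 and Ssbp1 were lost. Each of those 4 calls also ended without panobinostat 1 or panobinostat 4, among other single libraries, and under at least 1 scaling.

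Promoters of members held the letters of these factors more often than promoters at large. RefSeq promoters (GRCm38.p6, 250 bases before to 50 after the start) were found for 73 of the 91 protein coding members, in 78 windows. Both strands were searched, and none of the 4 words contains another. The NRF1 word CGCATGCG was in 14.1% of member windows and 1.87% of all 32851 windows, the ETS and GABP word CCGGAAG in 23.1% and 8.86%, and the YY1 word AAGATGGC in 12.8% and 2.75%. The E-box CACGTG, which MYC family proteins and others bind, was in 7.69% of member windows and 7.15% of all. The 250 bases before the start of 4 members are shown with these words in capitals, read 5′ to 3′ on the gene's strand, as examples of a called member with the NRF1 word, 1 with the ETS word on the opposite strand, 1 with neither, and an uncalled member with both.
Atp5g2, chr15:102671048-102671297, minus strand: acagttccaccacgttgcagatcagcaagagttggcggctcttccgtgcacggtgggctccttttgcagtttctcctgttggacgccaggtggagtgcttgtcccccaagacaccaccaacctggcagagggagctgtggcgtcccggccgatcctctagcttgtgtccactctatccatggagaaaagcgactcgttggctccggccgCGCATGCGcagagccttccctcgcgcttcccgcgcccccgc
Uqcrh, chr4:116075071-116075320, minus strand: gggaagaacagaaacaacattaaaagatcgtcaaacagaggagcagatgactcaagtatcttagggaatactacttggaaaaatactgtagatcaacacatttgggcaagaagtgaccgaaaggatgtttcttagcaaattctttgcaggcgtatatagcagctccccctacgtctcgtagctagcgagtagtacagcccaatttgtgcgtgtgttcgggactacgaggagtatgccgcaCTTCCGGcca
Cox6b2, chr7:4753095-4753344, minus strand: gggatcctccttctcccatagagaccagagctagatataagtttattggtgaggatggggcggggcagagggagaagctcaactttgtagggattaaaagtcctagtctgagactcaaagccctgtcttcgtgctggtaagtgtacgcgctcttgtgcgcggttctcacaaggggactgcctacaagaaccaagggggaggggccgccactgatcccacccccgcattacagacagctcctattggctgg
Cox6a1, chr5:115348959-115349208, minus strand: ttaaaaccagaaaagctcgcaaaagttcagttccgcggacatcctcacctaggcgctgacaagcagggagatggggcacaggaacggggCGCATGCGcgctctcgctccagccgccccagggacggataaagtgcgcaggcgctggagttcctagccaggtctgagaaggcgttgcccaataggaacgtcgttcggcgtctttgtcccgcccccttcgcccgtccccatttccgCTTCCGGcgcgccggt
The 11 members with the NRF1 word had a median log2 change of -0.08, with 0 called higher and 2 lower, and the 62 without it -0.14. The 18 with the ETS and GABP word had a median of -0.07, with 1 called higher and 4 lower, and the 55 without it -0.14. The other words went the opposite way: the 10 members with the YY1 word had a median of -0.24, with 1 called higher and 3 lower, against -0.08 for the 63 without it, and the 5 with the E-box had -0.15, with 0 called, against -0.10 for the 68 without it. A match of letters is a description of the window and does not show that a factor binds there.

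Complex I is the largest of the complexes, and its genes split. Of its 7 nuclear core subunits, Ndufs3 was called lower and the other 6 were not called (14.3% called, against 63.7% of all tested genes). These subunits carry the flavin, the iron-sulfur clusters and part of the quinone site. Ndufs3 stood at 6.11, 6.27, 6.00 and 6.43 log2 CPM in vehicle and 5.98, 5.66, 5.89 and 5.93 in panobinostat, a change of -0.34 ± 0.12 (limma adjusted p = 0.032). The groups were narrowly apart, and the call was lost without vehicle 2, vehicle 4, panobinostat 2, panobinostat 3 or panobinostat 4 and under scaling to read totals or quantile normalization. The uncalled core genes ran from -0.34 (Ndufs8) to -0.08, and 88 exon bases of Ndufs3 overlap Kbtbd4 on the opposite strand.

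Among the 29 accessory subunits of complex I, which surround the core, 5 were lower and 2 higher (24.1% called, against 63.7% of all tested genes). Ndufc2, a membrane arm subunit at chr7:97400003-97407802, was at 6.18, 6.25, 6.06 and 6.50 log2 CPM in vehicle and 5.89, 5.56, 5.82 and 5.74 in panobinostat. Every treated tumour was below every vehicle tumour, with a change of -0.49 ± 0.12 (limma adjusted p = 0.0057), and the level fell by 28.9%. Ndufa3, another small membrane arm subunit, at chr7:3617373-3620327, moved the other way. It stood at 4.48, 4.86, 4.60 and 4.93 log2 CPM in vehicle and 5.40, 5.05, 5.26 and 5.21 in panobinostat, a change of 0.51 ± 0.14 (limma adjusted p = 0.0088) with the groups apart, though it was not called without panobinostat 3 and 4. Ndufa1, an X-linked subunit needed for assembly of the membrane arm, was higher by 0.30 ± 0.10 (limma adjusted p = 0.029), with 4 treated values between 5.31 and 5.36 above vehicle values of 4.85 to 5.18. Its call was lost under median centring and without any 1 of the libraries other than vehicle 2 and vehicle 4. Ndufs6 (-0.43), a zinc-binding subunit, was lower, and its call was lost without vehicle 2, panobinostat 2 or panobinostat 4. Ndufs4 (-0.32), Ndufb11 (-0.33) and Ndufb7 (-0.34) completed the lower calls. These 3 lost them under scaling to read totals and quantile normalization and without vehicle 2, vehicle 4, panobinostat 2, panobinostat 3 or panobinostat 4, and also without vehicle 3 for Ndufs4 and panobinostat 1 for Ndufb7. The remaining 22 accessory genes were not called.

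The 8 assembly factors of complex I gave 2 calls, both lower (25%, against 32.4% of all tested genes called lower). Ndufaf5, which hydroxylates a core subunit, stood at 3.77, 4.11, 3.97 and 4.23 log2 CPM in vehicle and 3.68, 3.40, 3.69 and 3.69 in panobinostat, a change of -0.41 ± 0.15 (limma adjusted p = 0.037). The groups were apart by a narrow margin. Its partner protein gene Ndufaf8 changed by -0.48 ± 0.19 (limma adjusted p = 0.048), from 2.60 to 3.24 log2 CPM in vehicle and 2.43 to 2.61 in panobinostat, and these ranges overlap. Leaving out any 1 library other than vehicle 1 ended the Ndufaf5 call, and any 1 other than vehicle 3 the Ndufaf8 call. Ndufaf4 was at 4.98 to 5.16 log2 CPM in vehicle and 5.23 to 5.52 in panobinostat and was not called (0.23 ± 0.10, limma adjusted p = 0.078).

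Complex II has 4 subunits, all nuclear. Sdhc, a membrane anchor that holds part of the haem and quinone sites, was at 6.41, 6.59, 6.42 and 6.80 log2 CPM in vehicle and 6.90, 6.76, 6.93 and 6.76 in panobinostat. Vehicle 4 reached into the treated range, and the change was 0.28 ± 0.11 (limma adjusted p = 0.044). It was the only call among the 4 genes (25% higher, against 31.2% of all tested genes). This call was lost under median centring and without any 1 library other than vehicle 4. The flavoprotein Sdha (0.12), the iron-sulfur protein Sdhb (0.13) and the second anchor Sdhd (0.02) were not called, and for all 4 genes the 95% interval lay within 1.5-fold of no change.

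Complex III gave 1 call among 8 genes (12.5%, against 63.7% of all tested genes). Uqcrh encodes the hinge protein at the cytochrome c1 docking site and lies at chr4:116066965-116075071. Its level was 6.40, 6.59, 6.51 and 6.76 log2 CPM in vehicle and 7.18, 6.93, 7.00 and 6.87 in panobinostat, a change of 0.43 ± 0.11 (limma adjusted p = 0.0060). Every treated tumour was above every vehicle tumour, and the level was 34.8% higher. The core protein gene Uqcrc1, the most abundant of the 8 in vehicle before correction for length, was not called: it ran from 7.50 to 8.20 log2 CPM in vehicle and from 7.35 to 7.75 in panobinostat (-0.23 ± 0.17, limma adjusted p = 0.24). Processed copies of Uqcrh exist in the annotation, and how reads shared with them were counted is not given in the sources used here.

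Complex IV has 11 broadly expressed nuclear members, counting Ndufa4, which was named for complex I and belongs to complex IV. Cox6c, a small membrane subunit, stood at 6.55, 6.76, 6.47 and 6.49 log2 CPM in vehicle and 7.11, 6.81, 6.92 and 6.75 in panobinostat, a change of 0.33 ± 0.11 (limma adjusted p = 0.023). Vehicle 2 lay just above panobinostat 4, the only overlap. Ndufa4 (0.29 ± 0.10, limma adjusted p = 0.027) and Cox7b (0.27 ± 0.11, limma adjusted p = 0.047) were also called higher, again with overlapping groups. No others of the 11 were called, which made 27.3% higher, against 31.2% of all tested genes. Each of these 3 calls was lost under median centring and without panobinostat 1, panobinostat 3 or vehicle 3, and also without vehicle 1 and panobinostat 4 for Ndufa4 and Cox7b and without vehicle 4 for Cox7b. Cox4i1 (0.16), Cox6a1 (0.30), Cox6b1 (0.04), Cox7a2 (-0.26) and Cox8a (-0.20), the common forms of subunits that have a second gene, were not called. Cox7a2l, which joins complexes III and IV into supercomplexes, was not called either (0.16 ± 0.11, limma adjusted p = 0.22).

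The tissue-restricted complex IV isoforms were the members with the largest changes. Of the 6, 4 were called higher (66.7%, against 31.2% of all tested genes called higher). Cox6b2, known as the testis form of subunit VIb and lying at chr7:4751792-4753094, had 26, 19, 79 and 64 reads in vehicle and 176, 190, 181 and 139 reads in panobinostat. On the log2 CPM scale these were 0.23, -0.07, 1.82 and 1.61 against 2.98, 3.30, 3.12 and 2.83, a change of 2.16 ± 0.43 (limma adjusted p = 0.0018). The groups were well apart. Cox6b2 reads were 0.683% to 2.83% of those of Cox6b1 and Cox6b2 together in vehicle and 4.88% to 7.15% in panobinostat. The call held under every setting tried, but a filter of 5 CPM kept Cox6b2 through its treated libraries alone, which favoured the call there. No tumour approached the common form Cox6b1, which stood near 7.1 log2 CPM in the treated group.

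Cox4i2, the isoform of subunit IV known from lung and from low oxygen, lies at chr2:152754173-152765037. It had 49, 22, 29 and 18 reads in vehicle and 99, 86, 81 and 46 reads in panobinostat, or 1.13, 0.14, 0.39 and -0.19 against 2.16, 2.16, 1.96 and 1.24 log2 CPM. Panobinostat 4 lay just above vehicle 1, and the change of 1.52 ± 0.34 (limma adjusted p = 0.0039) was called under every setting in which it was tested (a filter of 5 CPM removed it). Ndufa4l2, a hypoxia-inducible relative of Ndufa4, was at 3.57, 2.37, 2.16 and 2.06 log2 CPM in vehicle and 4.45, 3.65, 3.85 and 3.37 in panobinostat. Vehicle 1 lay inside the treated range, and the change was 1.29 ± 0.36 (limma adjusted p = 0.011). Among the 10 fibroblast and mural cell markers all 10 were called higher and none was at 0 reads, with a summed level of 1529 to 4900 CPM in vehicle, highest in vehicle 1, and 8440 to 15297 CPM in panobinostat, lowest in panobinostat 4. Fewer cells of a type and less RNA per cell cannot be told apart in whole tumours, and the part of these cells in the Cox4i2 and Ndufa4l2 values was not tested. Ndufa4l2 also shares 32 exon bases with Shmt2 on the opposite strand.

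Cox7a1, Cox8b and Cox6a2 are the forms known from heart, skeletal muscle and, for the first pair, brown fat. Cox7a1 stood at 1.70, 3.46, 0.53 and -1.50 log2 CPM in vehicle and 4.61, 2.57, 3.32 and 3.17 in panobinostat, a change of 2.37 ± 0.92 (limma adjusted p = 0.047). Vehicle 2 lay within the treated range, and the call was lost under median centring and quantile normalization and without any 1 library other than vehicle 1 and vehicle 2. Cox8b had 139, 335, 27 and 1 reads in vehicle and 683, 240, 343 and 316 in panobinostat and was not called (3.37 ± 1.41, limma adjusted p = 0.061). Vehicle 4, with its single read, and vehicle 3 held the vehicle mean down, while vehicle 2 matched the treated tumours. Cox6a2 stood at -2.69, 4.91, 1.19 and -1.70 log2 CPM in vehicle and 5.49, 2.15, 3.05 and 1.08 in panobinostat (limma adjusted p = 0.19). Its highest libraries, panobinostat 1 and vehicle 2, were also the highest for the 10 skeletal muscle markers, whose summed level was 19.8, 3302, 425.5 and 21.4 CPM in vehicle and 9491, 243.8, 914.3 and 137.4 CPM in panobinostat, with 0 of 10 called by limma, 0 at an unadjusted p under 0.05, and none at 0 reads. The brown fat marker Ucp1 ran at 6.43, 6.08, 1.19 and 0.27 log2 CPM in vehicle and 7.55, 5.92, 6.09 and 6.78 in panobinostat, low in vehicle 3 and 4 as Cox8b and Cox7a1 were. Of the 8 brown fat markers, which include Cox8b itself, 3 were called higher, the summed level was 54.1 to 198.8 CPM in vehicle and 142.5 to 318.8 CPM in panobinostat, and Elovl3 was at 0 reads in vehicle 3. All 8 white fat markers were called higher (5 without panobinostat 3 and 4), with a summed level of 773.8, 251.7, 51.5 and 27.9 CPM in vehicle and 1290 to 1841 CPM in panobinostat, again lowest in vehicle 3 and 4, and Lep was at 0 reads in vehicle 4. Of the 5 listed heart markers 4 were tested and 1, Tnni3, was called higher, with 12, 6, 11 and 10 reads in vehicle and 178, 48, 45 and 38 in panobinostat. Tnni3 was under 1 CPM in every vehicle library and passed the filter through the treated libraries alone, which favoured its call. The summed heart level was 8.24 to 27.8 CPM in vehicle and 15.3 to 92.7 CPM in panobinostat, and Myh6 and Myl2 were at 0 reads in vehicle 1. The part of muscle, heart and fat in these 3 genes was not tested.

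**Figure D3:**
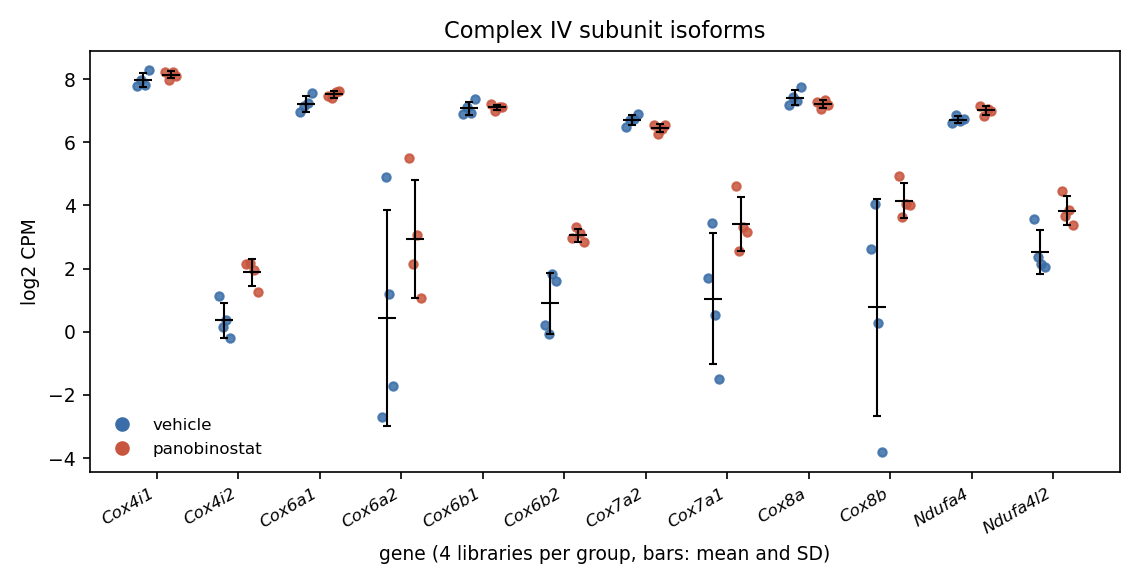
Log2 CPM (vertical axis) of complex IV subunit genes in the 4 vehicle (blue) and 4 panobinostat (red) libraries, each common form beside its tissue form, with bars at the mean and SD. The common forms sit above 6 in both groups, while Cox6b2 and Cox4i2 are low with treated points above all vehicle points, and Cox6a2, Cox7a1 and Cox8b spread widely in vehicle.

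Complex V genes gave 4 calls among 16, and each was lower (25%, against 32.4% of all tested genes called lower). Atp5b encodes the catalytic beta subunit of the F1 head and lies at chr10:128083273-128090391. It stood at 10.66, 10.98, 10.52 and 11.10 log2 CPM in vehicle and 10.36, 9.99, 10.35 and 10.40 in panobinostat, a change of -0.54 ± 0.16 (limma adjusted p = 0.016), and the level fell by 31.2%. The alpha subunit gene Atp5a1, its partner in the head, stood at 10.25, 10.54, 10.09 and 10.66 log2 CPM in vehicle and 9.91, 9.69, 9.97 and 9.98 in panobinostat, a change of -0.50 ± 0.15 (limma adjusted p = 0.015). In both genes every treated tumour was below every vehicle tumour, while the Atp5b call was lost without vehicle 2 (or panobinostat 2), where the highest adjusted p was 0.051. Atp5e, the epsilon subunit of the central stalk, was lower by a log2 change of -0.34 ± 0.13 (limma adjusted p = 0.046) with overlapping groups, and its call was lost under scaling to read totals or quantile normalization and without vehicle 2, vehicle 4, panobinostat 2, panobinostat 3 or panobinostat 4. The other 6 genes of the head and stalks were not called and ran from -0.33 (Atp5o) to 0.11 (Atp5h).

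Atp5g1, Atp5g2 and Atp5g3 encode the same mature c subunit of the rotating ring. Atp5g2, whose promoter is shown above and whose gene spans chr15:102662864-102672352, stood at 5.91, 6.05, 5.95 and 6.53 log2 CPM in vehicle and 5.51, 5.32, 5.47 and 5.45 in panobinostat. Treated tumours were all lower, and the level fell by 37.3% (log2 change -0.67 ± 0.14, limma adjusted p = 0.0024), the largest fall among the members. Atp5g1 changed by -0.36 ± 0.15 (limma adjusted p = 0.064) and Atp5g3, the most abundant of the 3, by -0.16 ± 0.12 (limma adjusted p = 0.27), and neither was called. The log2 ratio of Atp5g2 to Atp5g3 within a library, from which a constant scaling of the library drops out (quantile normalization does not), was -1.91 ± 0.15 in vehicle and -2.42 ± 0.07 in panobinostat (SD, n = 4), with the groups apart. None of the other membrane genes of complex V was called, at -0.20 (Atp5j2) to 0.09 (Atp5mpl).

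**Figure D4:**
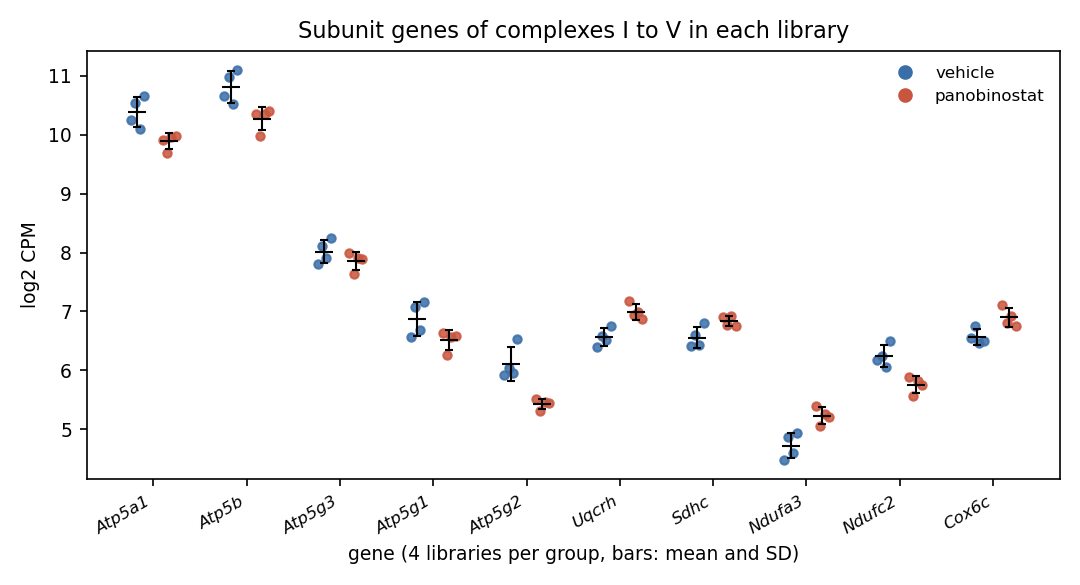
Log2 CPM (vertical axis) of 10 subunit genes of complexes I to V in the 4 vehicle (blue) and 4 panobinostat (red) libraries, with bars at the mean and SD. Atp5a1, Atp5b, Atp5g2 and Ndufc2 have all red points below the blue ones, and Uqcrh and Ndufa3 all red points above.

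Within the chain, complexes shifted against each other between vehicle and treated tumours. For each library, the mean of a complex's members was taken relative to its vehicle mean, and the complexes were then compared inside the library, where a constant scaling of the library drops out. Quantile normalization does not drop out, and these differences were computed on the deposited values alone. By this choice of reference all complexes share the same vehicle average, so the values show shifts between the groups alone. The complex IV mean minus the complex V mean was between -0.03 and 0.04 in vehicle and between 0.26 and 0.32 in panobinostat, a difference of 0.28. Complexes II and III also stood above complex V, by 0.37 and 0.32 relative to vehicle, and complex I above it by 0.11. Against complex I, complex II was higher by 0.25, complex III by 0.20 and complex IV by 0.17. In these 7 of the 10 pairs the 4 treated values lay above the 4 vehicle values. Complexes II, III and IV were not apart from each other, with differences of 0.03 to 0.08 and overlapping groups. The pairs were compared after the values had been seen, share members and were given no test.

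**Figure D5:**
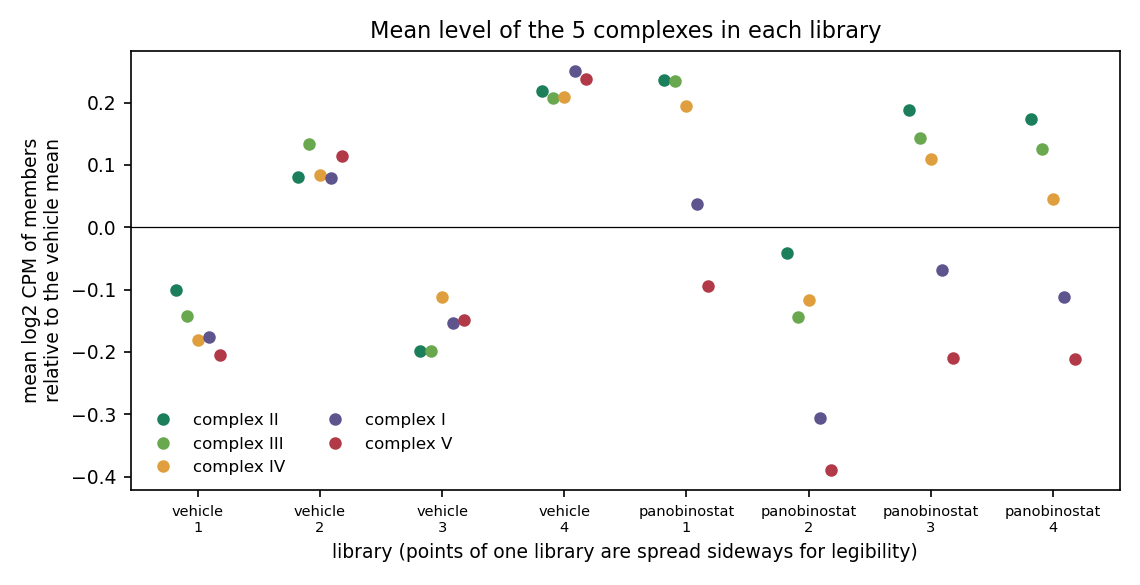
Mean log2 CPM of the members of each complex relative to the vehicle mean (vertical axis) in each of the 8 libraries (horizontal axis), with assembly factors and tissue isoforms left out. In vehicle libraries the 5 complexes lie together at changing heights, and in every panobinostat library complexes II, III and IV lie above complex I and complex I above complex V. The vehicle averages of the complexes coincide by the choice of reference.

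Members rose and fell together from tumour to tumour within a group. Over the 84 members outside the tissue isoforms and unplaced genes, vehicle 4 was the highest vehicle library in 74 (88.1%, against 37.7% of all tested genes) and panobinostat 2 the lowest treated library in 73 (86.9%, against 25.5%). Their mean was 6.08, 6.34, 6.10 and 6.49 log2 CPM in vehicle and 6.30, 5.98, 6.20 and 6.18 in panobinostat. The median SD within groups was 0.19 as deposited and 0.09 once each library was centred on this mean. Centring genes on their own mean lowers such an SD in part by construction, and no other gene set was centred for comparison. In that centred fit, chosen after the data were seen, 20 members were called higher and 13 lower, against 58.9% of all tested genes called, and since it sets the members' own mean to 0 it shows relative changes alone. The higher calls held 6 of 11 complex IV genes, 3 of 8 complex III genes and 2 of 4 complex II genes, and the lower calls held 7 of 16 complex V genes (5 of the head and stalks and 2 of the membrane part) and none of complexes II, III and IV. Complex I gave 3 higher and 4 lower accessory calls and 2 lower core calls, Ndufs3 and Ndufs8.

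Subunits encoded by mitochondrial DNA complete complexes I, III, IV and V. All 13 had a log2 change above 0 (12 of them with quantile normalization), from 0.23 to 0.81 with a median of 0.51. Of the 13, 3 were called (23.1%, against 63.7% of all tested genes), all higher: mt-Nd3 (0.81 ± 0.16), mt-Nd2 (0.72 ± 0.27) and mt-Co3 (0.57 ± 0.18). Median centring, and leaving out panobinostat 3 and 4, each left 1 call (mt-Nd3). The mt-Co3 and mt-Nd2 calls also ended under quantile normalization and without vehicle 3 or panobinostat 1, and that of mt-Nd2 without panobinostat 2, 3 or 4. Together the 13 made up 5.03%, 5.30%, 3.61% and 2.38% of reads in vehicle and 6.44%, 5.50%, 5.59% and 5.66% in panobinostat. All 13 were lowest in vehicle 4, so their signs were not independent observations. Summed macrophage markers stood at 648.4 to 1254 CPM in vehicle and 3105 to 5539 CPM in panobinostat. The part of other cell types in the mitochondrial values was not tested. The lowest share was in vehicle 4, where the nuclear members were highest, at 1.15% of reads. The nuclear members made up 0.948%, 1.08%, 0.910% and 1.15% in vehicle and 1.05%, 0.867%, 1.02% and 1.00% in panobinostat, so that these ranges overlap.

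Chain genes that the naming rule misses, chiefly assembly factors, gave 8 higher and 8 lower calls among 46 tested (34.8%, against 63.7% of all tested genes). Their median log2 change was 0.08, which was -0.04 with median centring and -0.07 with quantile normalization. Without panobinostat 3 and 4 there were 3 higher and 6 lower calls, and with read totals 14 higher and 7 lower. For complex IV, Coa5, an assembly factor, stood at 5.64, 5.68, 5.49 and 5.80 log2 CPM in vehicle and 6.78, 6.65, 6.78 and 6.67 in panobinostat, a change of 1.06 ± 0.09 (limma adjusted p = 1.8e-05) with the groups well apart. The copper chaperone gene Cox17 was also higher (0.56). The haem A enzymes were lower, at -1.39 ± 0.18 for Cox10 (limma adjusted p = 1.7e-04) and -0.55 ± 0.12 for Cox15, as was the assembly factor Coa7 (-1.16). For complex I, Tmem126b was higher (0.71) and Tmem186 lower (-1.26), both of the assembly group that builds the membrane arm. For complex V, Atpaf1, which helps form the F1 head, fell by 0.80 and Atpif1, the inhibitor of ATP hydrolysis, fell by 0.67 on the log2 scale. For comparison, of 79 mitochondrial ribosomal protein genes 2 were called higher and 40 lower (53.2%), with a median log2 change of -0.34, and 1 higher and 24 lower without panobinostat 3 and 4.

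Unplaced members were Atp5s, which encodes coupling factor B, and the pseudogenes Ndufb4c, Atp5l2-ps and Ndufab1-ps. Atp5s stood at 2.00, 2.23, 1.99 and 1.69 log2 CPM in vehicle and 3.15, 2.69, 2.91 and 2.90 in panobinostat, a change of 0.93 ± 0.19 (limma adjusted p = 0.0022). Treated tumours were all higher, by 91.2%, while quantile normalization ended the call. None of the 3 pseudogenes was called.

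Levels per length differed widely among members. Length counted every annotated exon base of a gene, as in 6883 for Ndufab1 and 4912 for Atp5g1. Which transcripts were expressed was not examined, so these levels and medians depend on the annotation. In vehicle tumours the highest were Atp5a1 at 432.2 ± 77.1 and Atp5b at 430.7 ± 79.3 CPM per kb of exon (SD, n = 4), which did not differ beyond their spread, followed by Cox8a at 279.4 ± 50.6 and Cox6a1 at 214.9 ± 39.0. The medians were 38.5 CPM per kb for complex I core subunits, 39.5 for accessory subunits, 65.2 for complex II, 78.0 for complex III, 76.4 for complex IV and 88.7 for the head and stalks of complex V. Complex I assembly factors stood lower, at a median of 8.83 CPM per kb. Near the bottom were Cox4i2 at 1.74 ± 0.73, Atp5s at 1.95 ± 0.29 and Cox6b2 at 1.96 ± 1.17 CPM per kb, which overlap. Atp5l was listed lower still, at 0.574 CPM per kb, and has processed copies in the annotation, so its level is uncertain.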

How the data were processed

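Whole-tumour RNA was made into Illumina TruSeq V2 libraries, per the labels' protocols, and the genome was mm10, per the submitters' processing notes. Those notes also list TopHat2, HTSeq and limma, with no version or role, and CASAVA 1.8.2. The authors deposited 1 table of log2 CPM, library-scaled read counts on a log2 scale with 0.5 read added. Solving each value for reads gave whole numbers for 100% of values within 0.001, so read totals were recovered, and scaling between libraries was done before deposit. How strand and reads shared between near-identical copies were counted is not given in the sources used here.

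The deposited log2 values of 4 against 4 libraries went into a two-sided moderated test with a variance trend (limma 3.58.1, R 4.3.3), for genes at or above 1 CPM in at least 4 of 8 libraries (16157 tested, 1331 left out, all 94 members kept), with Benjamini-Hochberg adjustment over all tested genes at 0.05. On simulated data with 200 changed genes at these depths, 87% of genes changed 1.5-fold and 100% of those changed 2-fold were called. The simulation drew genes independently, with the same dispersion for all and no component shared across a library. The real libraries hold such a component and far more called genes, so these shares may not hold for them. Gene symbols and exon lengths came from GENCODE M21 (GRCm38). Promoters came from RefSeq (GRCm38.p6). Members and lists were chosen with earlier results of these data known. Named members are, per role, the 3 with the smallest adjusted p, the most abundant, those called against the majority direction, the 4 Sdh genes, isoform pairs and c-ring genes; other names were chosen after their values were seen. The values of 1 further gene that this rule picks are not reported here. Alternatives changed the filter, scaling, variance model, pseudocount, threshold and libraries. Python 3.11.15 and pandas 2.3.3 made the tables.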

Additional observations from a re-analysis of the deposited data

Results flagged for a closer look

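In groups of 4, a library was singled out when its gap to the nearest value, divided by the group's range, passed Dixon's 95% critical value. Over 88 groups (44 named members in 2 groups) 4 did so, and chance alone is known to single out about 1 in 20. Panobinostat 2 was far below the other treated tumours for Ndufaf5, at 3.40 log2 CPM, for Uqcrc1, at 7.35, and for Atp5b, at 9.99. Vehicle 1 was far below the other vehicle tumours for Ndufaf4, at 4.98. Panobinostat 2 was also the lowest treated library in 73 of 84 chain members, so 3 of these 4 fall in a library that is low for the chain as a whole.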

How the results depend on the processing

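No paired analysis was possible because the replicate numbers are only names given in accession order. The count of members called higher (12) became 6 with median centring, 21 with scaling to read totals, 23 with quantile normalization, 2 in the test against 1.5-fold, 5 at an adjusted p of 0.01, 5 without panobinostat 3 and 4, 20 with centring on the chain mean (chosen after seeing the data), and 6 to 16 when single libraries were left out. The count called lower (12) became 27, 5, 12, 0, 2, 4 and 13 under the same settings in the same order, and 3 to 16 without single libraries; limma's test against 1.5-fold left 0 lower members at an unadjusted p under 0.05 as well. The median log2 change stayed within the spread of the vehicle libraries (SD 0.20) under every setting, from -0.19 with median centring to 0.056 with quantile normalization, so its sign is not fixed. Signs were compared across settings for the 44 named members only, and among these they turned for uncalled members alone. With quantile normalization Ndufv2 was 0.018, Ndufa10 0.034, Uqcrc1 0.083, Cox8a 0.062, Atp5j2 0.00098, Atp5g3 0.17 and Atp5l2-ps -0.27. With median centring Sdhd was -0.094 and Cox6b1 -0.079, and without panobinostat 3 and 4 Sdhd was -0.018. Without single libraries Sdhd ran from -0.043 to 0.094 and Cox6b1 from -0.021 to 0.13. The cause was not tested. Changes under 1.5-fold were not among those simulated, so an uncalled member may still differ by less than that. A missing call does not exclude a larger change either. The 95% interval lay within 1.5-fold for 52 of the 94 members. The uncalled Cox8b and Cox6a2 had log2 changes of 3.37 and 2.52, with wide spread in vehicle.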

Other observations

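Ratios between subunits of the same complex, picked after their values were seen, also differed between the groups as deposited. A constant scaling of a library drops out of such a ratio, while quantile normalization does not, and the ratios were not computed under it. The log2 ratio of Uqcrh to the core protein gene Uqcrc1 in complex III was -1.31 ± 0.23 in vehicle and -0.64 ± 0.19 in panobinostat (SD, n = 4), with the groups apart. In complex IV the log2 ratio of Cox6c to Cox5b was -0.06 ± 0.34 in vehicle and 0.53 ± 0.19 in panobinostat, also apart. Across complexes the log2 ratio of Atp5b to Cox4i1 went from 2.85 ± 0.13 to 2.14 ± 0.12. By contrast, the ratios of Cox4i2, Cox6a2, Cox7a1 and Cox8b to their common forms, and of Ndufa4l2 to Ndufa4, overlapped between the groups.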
